A study of Mus musculus with 58 samples.

Results

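The mitochondrial ribosomal protein genes are the nuclear genes whose products, made in the cytosol and imported, form the protein part of the ribosome inside mitochondria. They were chosen by symbol alone, as the genes whose name begins with Mrpl or Mrps followed by a digit, and 73 of the 9636 genes in the table matched. Earlier results of these data were known when this choice was made. Of these, 46 carry the symbol of the large subunit (Mrpl) and 27 that of the small subunit (Mrps). They were followed in 58 bulk RNA libraries of somatosensory cortex from C57BL/6J mice of both sexes, aged 2 to 4 months at the start. Mice received 5 closed head injuries on successive days (5xCHI, a model of repeated mild traumatic brain injury) or 5 sham procedures. After a delay of 30 min, each procedure was followed by an intraperitoneal injection of saline vehicle or of 20 mg/kg SB239063 (SB), which inhibits the stress-activated kinase p38 MAPK. After injury, SB was given to 11 females and 8 males and vehicle to 12 females and 8 males. After sham procedures, SB was given to 3 females and 2 males and vehicle to 9 females and 5 males, which makes 35 females and 23 males. All belong to the chronic time, about 18 and 34 days after the last injury, and the labels do not say which animal belongs to which day. Each sex came in 4 labelled cohorts (F1 to F4 and M1 to M4). The labels do not say what a cohort stands for.

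The mitochondrial ribosome translates the few messages of the mitochondrial genome, which encode core subunits of the respiratory chain, while its own RNAs come from that genome and all of its proteins from the nucleus. Many of its proteins descend from those of bacterial ribosomes, and others are found only in mitochondria. Neurons depend on respiration for synaptic activity, so mitochondrial translation is a basic function of cortex. Symbols do not always match place or function. The products of Mrps18a and Mrps30 sit in the large subunit, and that of Mrps36 is known as a component of the 2-oxoglutarate dehydrogenase complex. Mrps18c and the genes of the mitochondrial genome itself were not analysed here.

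Promoters of these genes are known to carry sites for NRF1, for ETS factors such as GABP, and for YY1, which are activators of nuclear genes for mitochondrial proteins. A RefSeq promoter (GRCm38.p6, 250 bases before to 50 after the start) was matched for 66 of the 73 genes, and both strands were searched for 3 short words. The NRF1 word GCGCATGCG was found in 7 of 66 (10.6%), against 4.47% of the promoters of all genes in the table and 1.75% of all promoters of that length. The ETS word CCGGAAG was found in 23 (34.8%), against 20.6% and 8.86%. The YY1 word AAGATGGCG was found in 8 (12.1%), against 3.97% and 1.4%. In all, 33 of 66 (50%) held at least 1 of the 3 words, against 26.9% of the table's genes and 11.4% of all promoters. These matches describe letters and were not tested. On the strand of the gene, the sequences given here are the promoters of Mrps21 and Mrpl9, the members of smallest p for injury, of Mrps27, the member of smallest p among those higher with SB, and of Mrpl18, the member most correlated with the mean of all members over the 58 libraries. Capitals mark the ETS word on either strand in Mrps21, Mrps27 and Mrpl18, the YY1 word in Mrps27 (its later run), and the NRF1 word on both strands in Mrpl9. The windows lie at chr3:95871465-95871764 (minus strand) for Mrps21, chr3:94443086-94443385 (plus strand) for Mrpl9, chr13:99344536-99344835 (plus strand) for Mrps27 and chr17:12916042-12916341 (minus strand) for Mrpl18.
Mrps21: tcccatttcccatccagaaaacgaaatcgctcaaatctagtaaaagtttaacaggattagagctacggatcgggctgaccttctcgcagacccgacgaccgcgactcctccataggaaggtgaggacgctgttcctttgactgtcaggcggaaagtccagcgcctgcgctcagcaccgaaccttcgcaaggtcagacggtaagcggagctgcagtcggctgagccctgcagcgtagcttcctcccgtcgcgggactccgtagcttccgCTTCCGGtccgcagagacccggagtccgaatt
Mrpl9: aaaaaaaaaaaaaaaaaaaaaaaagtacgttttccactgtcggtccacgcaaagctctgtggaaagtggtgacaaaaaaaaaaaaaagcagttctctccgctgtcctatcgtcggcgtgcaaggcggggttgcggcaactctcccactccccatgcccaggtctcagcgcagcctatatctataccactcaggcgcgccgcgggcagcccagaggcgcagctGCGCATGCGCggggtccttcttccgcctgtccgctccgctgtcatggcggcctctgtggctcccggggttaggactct
Mrps27: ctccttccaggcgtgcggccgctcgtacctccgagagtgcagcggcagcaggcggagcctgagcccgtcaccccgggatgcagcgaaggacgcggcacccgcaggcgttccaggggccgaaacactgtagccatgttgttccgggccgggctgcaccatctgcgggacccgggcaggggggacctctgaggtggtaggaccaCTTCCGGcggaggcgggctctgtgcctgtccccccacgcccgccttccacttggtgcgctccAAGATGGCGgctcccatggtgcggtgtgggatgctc
Mrpl18: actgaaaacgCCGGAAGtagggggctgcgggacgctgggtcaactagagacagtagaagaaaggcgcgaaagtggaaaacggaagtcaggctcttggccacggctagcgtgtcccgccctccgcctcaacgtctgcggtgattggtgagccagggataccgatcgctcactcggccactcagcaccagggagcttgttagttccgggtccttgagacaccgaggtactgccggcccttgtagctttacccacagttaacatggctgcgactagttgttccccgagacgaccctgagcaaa

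The sum of counts per library lay between 28316280 and 49158277, of which the members together held 0.176% to 0.244%. The smallest count of a member in any library was 171 and the largest 4101. No count in the table is below 101, so genes of low count were left out before deposit and a member of low level could not be seen. The markers of the labelled tissue were present: all 5 excitatory neuron markers were measured, with a summed level of 3148 to 6215 CPM (counts scaled to library size) in sham vehicle mice. None of the 4 choroid plexus or 5 blood markers was in the table, but the cut on low counts alone could remove them. Their absence therefore does not show that such tissue was missing. The 2 striatum markers were measured. Their summed level ran from 98.9 to 588 CPM (median 126) in injured SB and from 98.5 to 266 CPM (median 119) in injured vehicle mice. It ran from 90.1 to 263 CPM (median 151) in sham SB and from 102 to 279 CPM (median 117) in sham vehicle mice. In bulk RNA, fewer cells of a type and less RNA per cell cannot be told apart. The labels describe separate samples of a group, and each was treated as a separate animal. If some shared an animal, the p-values would cover a spread that is partly technical. On the first 5 principal components 8 libraries lay more than 3 scaled median absolute deviations from the median: 5 sham vehicle, 1 injured vehicle and 2 injured SB mice. Some of the results below are also given without them.

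The members were of moderate level. Mean levels over the 58 libraries ran from 8.09 CPM for Mrpl33 to 76.1 CPM for Mrpl48, with a median of 25.1 CPM against 50.0 CPM for all genes. Their transcripts are short, with a median of 1339 bases against 3321 for all genes. Per kilobase of the principal transcript, the scale on which genes can be compared, the median member stood at 16.9 CPM per kb, close to the 15.4 CPM per kb of all genes. The 77 genes of cytosolic ribosomal proteins in the table stood at a median of 149 CPM per kb. By symbol, the large subunit had a median of 17.8 CPM per kb and the small subunit one of 14.1. The 46 members with a bacterial counterpart had a median of 17.4 CPM per kb, and the 27 found only in mitochondria had one of 15.0.

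The highest levels per kilobase were those of Mrps21, the counterpart of a small bacterial protein of the small subunit, at 50.6 ± 6.50 CPM per kb (SD, n = 58), and of Mrpl42, a mitochondria-specific protein, at 48.6 ± 6.31. Mrpl20, a bacterial-type protein of the large subunit, followed at 39.5 ± 5.37, and Mrpl41, a mitochondria-specific protein of the same subunit, at 38.9 ± 5.23. Mrps21 and Mrpl42 differed by less than the spread over libraries, as did Mrpl20 and Mrpl41. At the low end stood Mrpl17 at 3.38 ± 0.356, Mrpl1, part of a mobile stalk of the large subunit, at 4.55 ± 0.529, Mrps16 at 4.88 ± 0.666 and Mrps35 at 4.90 ± 0.432. The last 3 differed by less than their spread. The ratio of the highest to the lowest member was 15.0, against 48.5 among the cytosolic ribosomal proteins. These orders depend on the length used: with the union of all annotated exons Mrpl42 came to 8.78 CPM per kb, Mrpl20 to 18.2 and Mrps35 to 2.36, while Mrps21 and Mrpl41 stood at 33.4 and 34.0. The ratio depends on it too. On the union length the members ran from 1.10 for Mrpl33 to 34.0 for Mrpl41, a wider range. The cytosolic ribosomal proteins are not given on that length.

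**Figure D1:**
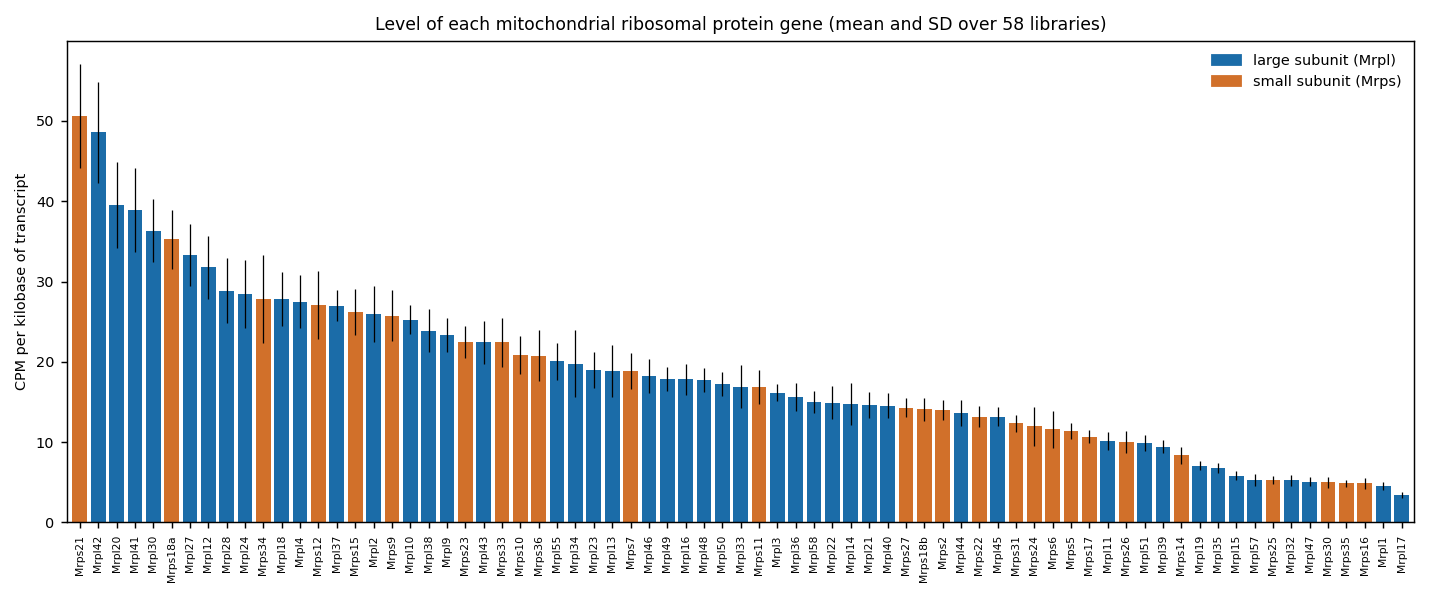
Bars give the mean level of each of the 73 genes in CPM per kilobase of transcript, blue for large and orange for small subunit symbols, and lines give the SD over 58 libraries. Levels fall from 50.6 for Mrps21 to 3.38 for Mrpl17 without a gap between the subunits.

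Members with a further known role lay within this range. Mrpl12 and Mrpl10, which form the stalk that recruits translation factors (Mrpl12 also binds the mitochondrial RNA polymerase), stood at 31.8 ± 3.92 and 25.2 ± 1.82 CPM per kb. Mrps12, which contacts the decoding site, stood at 27.1 ± 4.21. The pair of Mrps18 paralogs differed in level, with Mrps18a at 35.3 ± 3.71 and Mrps18b at 14.1 ± 1.47. Mrps27 and Mrps34 stood at 14.3 ± 1.13 and 27.8 ± 5.47, Mrpl44, which has a fold of the RNase III family, at 13.7 ± 1.64, and Mrpl58, a peptidyl-tRNA hydrolase that rescues stalled ribosomes, at 15.0 ± 1.37. Mrps30 stood at 5.00 ± 0.674 and Mrps36 at 20.8 ± 3.15.

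Variation between animals was that of an ordinary gene. The biological coefficient of variation, the spread beyond counting error within groups and cohorts, had a median of 0.106 over the members and of 0.110 over all genes. Mrpl34 (0.198), Mrps24 (0.184) and Mrps34 (0.178) varied most, and Mrpl3 (0.0697) and Mrpl10 (0.0736) least. Exons of Mrps24 overlap those of Urgcp on the same strand, and exons of Mrps34 overlap those of Nme3 on the same strand and of Mapk8ip3 on the other, in the GENCODE vM21 annotation. In all, 4 members have such an overlap on their own strand and 27 on the other, and Mrpl46 and Mrps11 overlap each other. No source used here gives the strand setting of the counting, so overlapping genes may share counts. Mrpl23, Mrpl48 and Mrps36 have annotated pseudogenes of their own name, and reads of near-identical copies could be split.

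Injury was compared with sham in vehicle mice (20 against 14) to find which transcripts still differed at the chronic time. None of the 73 members was called as changed, and none of the 9636 genes was (0% called at an adjusted p of 0.05 by edgeR's quasi-likelihood test, adjusted by Benjamini-Hochberg over all genes, as in every comparison here). At an unadjusted p under 0.05 stood 2 of 73 members (2.74%) and 169 genes (1.75%), and DESeq2 and limma voom called 0 members as well. By sign, 63 members were lower and 10 higher, with a median log2 fold change of -0.036 against -0.00067 over all genes. The intervals were narrow: the 95% interval of every member lay within 1.5-fold of no change, and the widest bound was 1.27-fold, for Mrps24.

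The members of smallest p were Mrps21 and Mrpl9, both lower. Mrps21 ran from 19.6 CPM over a median of 23.7 to 29.9 CPM in injured vehicle mice, and from 22.2 over 25.6 to 34.0 CPM in sham vehicle mice. Its log2 fold change was -0.13 ± 0.063 (SE, unadjusted p = 0.0394, adjusted p = 1 by edgeR). The groups overlapped, with 5 of 20 injured mice below the lowest sham mouse and none above the highest. Mrpl9, a bacterial-type protein of the large subunit, ran from 33.8 over 38.0 to 42.6 CPM in injured and from 35.9 over 39.4 to 45.3 CPM in sham mice. Its fold change was -0.088 ± 0.042 (unadjusted p = 0.0405, adjusted p = 1 by edgeR), with 4 of 20 injured mice below every sham mouse. Exons of Mrpl9 overlap those of Oaz3 on the other strand.

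The next on that side were the large subunit genes Mrpl18 at -0.11 ± 0.056 and Mrpl19 at -0.085 ± 0.044. On the other side, Mrpl35 stood at 0.054 ± 0.049, Mrpl1 at 0.045 ± 0.065, Mrpl32, whose product is matured by a mitochondrial protease before assembly, at 0.032 ± 0.062, and Mrpl3 at 0.019 ± 0.036. In none of these 6 did the 95% interval exclude 0. Mrps12 stood at -0.12 ± 0.079, while Mrps27 (-0.00044 ± 0.042) and Mrps36 (0.0047 ± 0.076) were nearest to 0 among the members with a further role.

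The lean toward lower values in injured mice depended on which libraries were kept. Of the 5 libraries with the highest mean level of the members, 4 were sham vehicle mice, and all 5 are among the 8 that stood apart. Leaving out the 8 takes sham mice of high member level away, which by itself moves the difference upward. Without those 8 libraries, a check chosen after the data had been seen, 62 of 73 members were higher and 11 lower (median 0.039). Mrps21 was then at -0.0085 and Mrpl9 at -0.0032. With limma voom, which gives such libraries less weight, 53 were higher and 20 lower (median 0.021). Without sham vehicle male 4 alone the median was -0.011. The median within cohorts had both signs: it was -0.15 in F2, -0.16 in M1 and -0.11 in M3, where 1, 1 and 2 sham vehicle mice entered, and lay between 0.0038 and 0.059 in the other 5 cohorts.

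**Figure D2:**
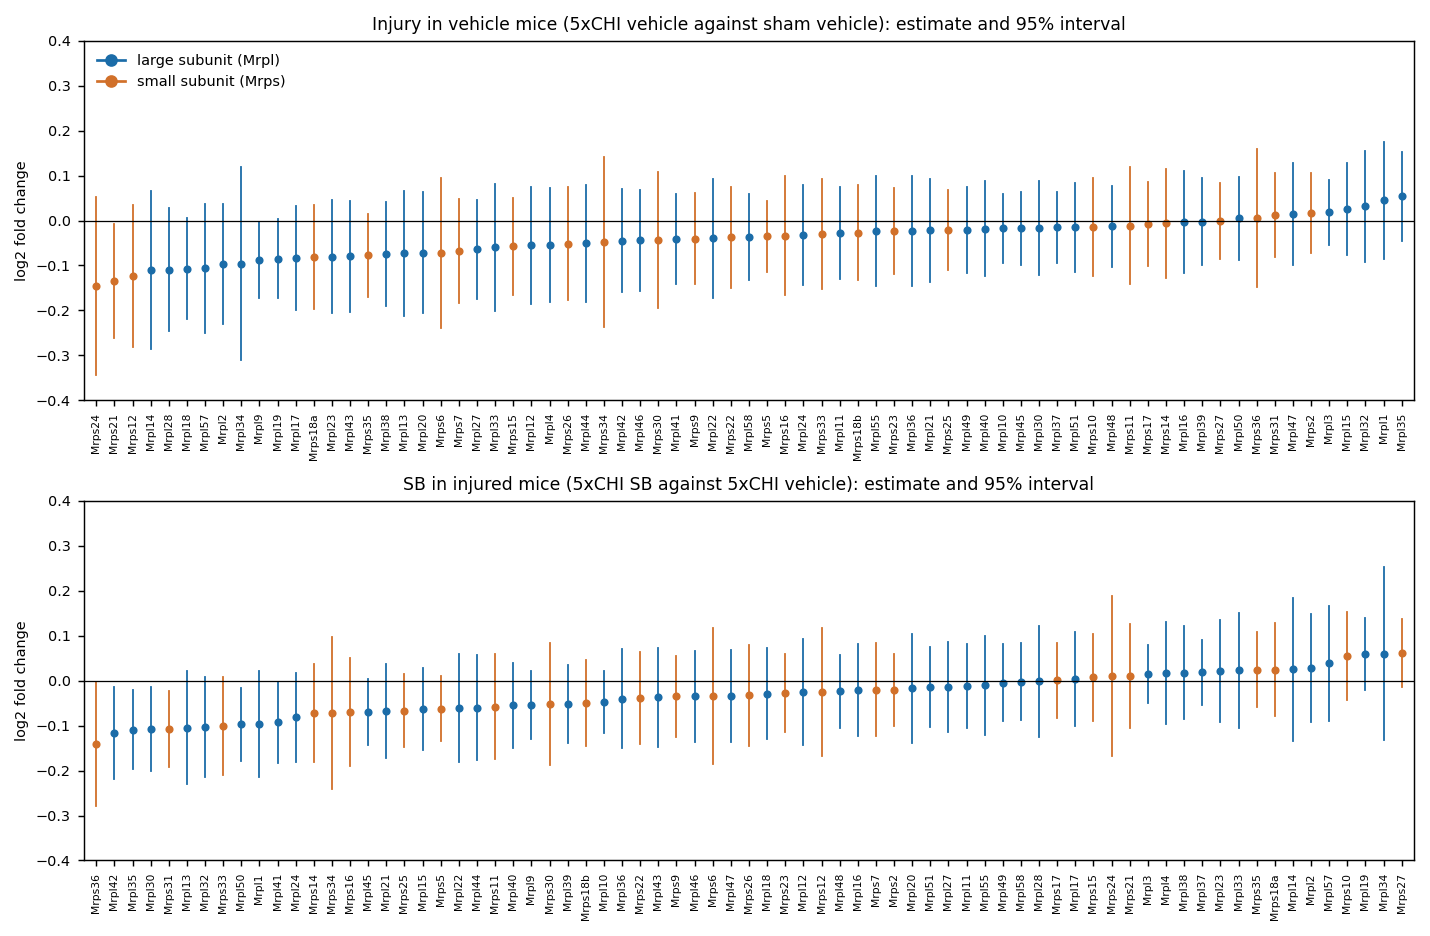
Points give the log2 fold change of each of the 73 genes and lines its 95% interval, for injury in vehicle mice (above) and SB in injured mice (below), ordered by value, blue for large and orange for small subunit symbols. Estimates lie between -0.15 and 0.054 for injury and between -0.14 and 0.062 for SB, and most intervals include 0.

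Treatment was compared between injured SB and injured vehicle mice (19 against 20), which shares the injured vehicle mice with the comparison above. No member and no gene was called as changed (0% by edgeR). DESeq2 called 0 genes and voom 1, which is no member. At an unadjusted p under 0.05 stood 7 of 73 members (9.59%), all of them lower, against 680 genes (7.06%). By sign, 53 members were lower and 20 higher, with a median of -0.032 against 0.0034 over all genes. The widest bound was 1.21-fold, for Mrps36.

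Mrps31, a mitochondria-specific protein of the small subunit, had the smallest p. It ran from 14.3 over a median of 17.9 to 21.4 CPM in injured SB mice and from 17.1 over 18.7 to 22.3 CPM in injured vehicle mice, with 7 of 19 SB mice below every vehicle mouse. Its log2 fold change was -0.11 ± 0.042 (unadjusted p = 0.0134, adjusted p = 0.655 by edgeR). Mrpl35 stood at -0.11 ± 0.044, Mrpl50 at -0.097 ± 0.041 and Mrpl30 at -0.11 ± 0.047, and Mrpl42, Mrpl41 and Mrps36 were the other 3 with an unadjusted p under 0.05. Mrpl30 ran from 27.1 over 33.0 to 38.9 CPM with SB and from 30.9 over 36.0 to 45.3 CPM with vehicle, and 5 of 19 SB mice lay below every vehicle mouse.

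Of the members that were higher, Mrps27, an RNA-binding protein of the small subunit, had the smallest p. It ran from 24.1 over 26.4 to 31.9 CPM with SB and from 22.9 over 25.7 to 30.6 CPM with vehicle, and its fold change was 0.062 ± 0.038 (unadjusted p = 0.107, adjusted p = 0.737 by edgeR). Mrpl19 stood at 0.059 ± 0.040, Mrps10 at 0.055 ± 0.049 and Mrpl34 at 0.060 ± 0.096. Without the 8 libraries that stood apart, 46 members were lower with SB (median -0.013). Within cohorts the median ran from -0.16 in F2 to 0.095 in M4 and was below 0 in 6 of 8.

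All 8 measured oligodendrocyte markers were lower in injured SB than in injured vehicle mice, with a median log2 fold change of -0.37 (none passed by edgeR, smallest adjusted p = 0.655). Their summed level ran from 2465 to 8668 CPM (median 6816) in injured SB and from 5162 to 12318 CPM (median 7321) in injured vehicle mice. In sham mice it ran from 6104 to 8070 CPM (median 7568) with SB and from 3177 to 20476 CPM (median 6758) with vehicle. Across the 58 libraries the mean level of the members followed the summed oligodendrocyte markers only weakly (Pearson's r = 0.128, Spearman's rho = 0.139, r = -0.058 without the 2 libraries of most extreme marker level and -0.106 after group and cohort were removed). It ran opposite to the summed level of the 5 excitatory neuron markers (r = -0.588, rho = -0.382, r = -0.466 without the 2 most extreme libraries and -0.404 after group and cohort were removed). That sum ran from 4436 to 6249 CPM (median 5474) in injured SB, from 4137 to 5862 CPM (median 5248) in injured vehicle, from 4469 to 6493 CPM (median 5941) in sham SB and from 3148 to 6215 CPM (median 5179) in sham vehicle mice. The part of either marker list in the values of the members was not tested.

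The other comparisons called no member either. For injured SB against sham vehicle mice 0% of genes were called by edgeR, 12 members (16.4%) and 1211 genes (12.6%) had an unadjusted p under 0.05, and 69 members were lower (median -0.076, all genes 0.00036). This comparison shares its groups with both of those above. Mrpl9 had the smallest p, with 30.6 to 47.0 CPM (median 36.5) in injured SB and 35.9 to 45.3 CPM (median 39.4) in sham vehicle mice, at -0.14 ± 0.042 (adjusted p = 0.329 by edgeR). Without the 8 libraries the median of the members was 0.024.

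For SB in sham mice, with 5 SB mice, 0% of genes were called by edgeR, 7 members (9.59%) and 676 genes (7.02%) had an unadjusted p under 0.05, and 64 members were lower (median -0.068). Mrpl9 again had the smallest p. The 5 sham SB mice stood at 33.0, 33.2, 33.6, 36.1 and 38.8 CPM, against a sham vehicle range of 35.9 to 45.3 CPM, a fold change of -0.19 ± 0.066 (adjusted p = 0.677 by edgeR). These sham SB mice came only from cohorts F1, F2, M1 and M2, and the sham vehicle mice from every cohort. The ranges therefore mix cohort with SB, while the model behind the fold change holds a cohort term. Without the 8 libraries, which include 5 of the 14 sham vehicle controls, the median of the members was 0.031 and Mrpl9 stood at -0.11.

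For the injury by SB interaction, the SB effect in injured minus that in sham mice, 0% of genes were called by edgeR, 1 member and 133 genes (1.38%) had an unadjusted p under 0.05, and 53 members were above 0 (median 0.052). That member was Mrpl33, a small bacterial-type protein of the large subunit, at 0.33 ± 0.13 (adjusted p = 0.999 by edgeR), and at 0.20 without sham SB male 2 and 0.47 without sham SB male 1. The 3 sham SB females stood at 6.23, 6.89 and 7.67 CPM and the 2 sham SB males at 5.47 and 7.07 CPM, within or below the sham vehicle ranges of 6.17 to 10.6 CPM in females and 6.40 to 9.83 CPM in males. Here too the sham SB mice came from F1, F2, M1 and M2 only, so the ranges mix cohort with SB. The median of the members was 0.0076 without sham vehicle male 4.

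By sex, injury in vehicle females gave 0% of genes called by edgeR and 0 members with an unadjusted p under 0.05, against 303 genes (3.14%). Of the members 43 were lower and 30 higher (median -0.0087), and the median was 0.027 without sham vehicle female 7. Mrpl19 had the smallest p, at -0.094 ± 0.054. In males 0% of genes were called by edgeR, 3 members (4.11%) and 342 genes (3.55%) had an unadjusted p under 0.05, and 58 members were lower (median -0.074). The median in males was 0.032 without the 8 libraries and -0.031 without sham vehicle male 4 alone. Mrpl38, a mitochondria-specific protein of the large subunit, had the smallest p in males. The 5 sham vehicle males stood at 30.5, 34.5, 37.3, 38.0 and 45.9 CPM, and the 8 injured vehicle males ran from 27.0 over 32.0 to 35.5 CPM. Its fold change was -0.23 ± 0.091 in males (adjusted p = 0.846 by edgeR) and 0.081 ± 0.070 in females. In males it was -0.15 without sham vehicle male 2, the mouse at 45.9 CPM, and -0.32 without sham vehicle male 1.

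The male minus female difference of the injury effect gave 0% of genes called by edgeR, with 3 members (4.11%) and 591 genes (6.13%) at an unadjusted p under 0.05. Voom called 8 genes and no member. Mrpl38 again had the smallest p, at -0.31 ± 0.11 (adjusted p = 0.786 by edgeR), and 55 members were below 0 (median -0.059). The median was -0.11 without sham vehicle female 7 and -0.015 without sham vehicle male 4. The 95% interval lay within 1.5-fold of no difference for 71 of 73 members, and the widest bound was 1.66-fold, for Mrps24.

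SB in injured females gave 0% of genes called by edgeR, 11 members (15.1%) and 695 genes (7.21%) with an unadjusted p under 0.05, and 66 members lower (median -0.069). Mrpl30 had the smallest p, running from 27.1 over 32.6 to 38.4 CPM with SB and from 30.9 over 36.0 to 45.3 CPM with vehicle, at -0.16 ± 0.060 (adjusted p = 0.693 by edgeR). In injured males 0% of genes were called by edgeR, 1 member and 181 genes (1.88%) had an unadjusted p under 0.05, and 42 members were higher (median 0.0094, and -0.012 without injured SB male 6). That member was Mrps27, with 24.6 to 31.3 CPM (median 27.8) with SB and 24.2 to 28.4 CPM (median 25.6) with vehicle, at 0.12 ± 0.058 (adjusted p = 1 by edgeR).

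The male minus female difference of the SB effect gave 0% of genes called by edgeR, 1 member and 88 genes (0.913%) with an unadjusted p under 0.05, and 63 members above 0 (median 0.087, all genes -0.0033). That member was Mrps30, at 0.31 ± 0.14 (adjusted p = 1 by edgeR). One library bears on it: injured SB female 10 stood at 5.99 CPM of Mrps30, while the other 10 injured SB females ran from 13.3 to 16.8 CPM. No other library in the series was below 13.3 CPM. Without that female, which also had the lowest mean level of the members, the difference was 0.23. Exons of Mrps30 overlap those of B430218F22Rik on the other strand.

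More genes were called between cohorts than for injury or treatment. In the tests over 4 cohorts this held for the members among females but not among males. A test for any difference over 4 cohorts is unlike a comparison of injury or treatment, so the counts are not on the same scale. Among females, 23 of 73 members (31.5%) differed between the 4 cohorts, against 4816 of all genes (50% called by edgeR). The counts depended on the setting: with library totals 35 members (47.9%) and 52.5% of genes passed, with voom 45 (61.6%) and 71.9%, and with the replicate block 13 (17.8%) and 36.2%. Without the 8 libraries that stood apart, 28 members (38.4%) and 58.9% of genes passed. The members' share was the lower in each of these, and the difference in shares was not tested. By symbol the 23 were 12 of 27 small subunit and 11 of 46 large subunit genes. All 23 had their highest fitted level in F4 (16 genes) or F2 (7 genes) and their lowest in F1 (13) or F3 (10). Over all genes called, the highest cohort was F1 in 36.9%, F4 in 33.5%, F2 in 15.0% and F3 in 14.7%. The range over cohorts had a median of 0.18 (log2) over the 73 members and of 0.24 over all genes.

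The member of smallest p was Mrpl41. It ran from 24.6 over a median of 26.4 to 30.0 CPM in F1, from 26.6 over 31.1 to 38.6 CPM in F2 and from 23.1 over 27.7 to 38.7 CPM in F3. The 5 mice of F4 stood at 32.3, 36.1, 36.5, 37.9 and 39.4 CPM, all above every mouse of F1 (adjusted p = 3.09e-05 by edgeR). Mrpl24, a bacterial-type protein of the large subunit, showed the same order, from 29.2 to 39.8 CPM in F1 and at 44.4, 44.7, 46.1, 48.5 and 50.0 CPM in F4 (adjusted p = 4.81e-04 by edgeR). Mrps9, which reaches toward the decoding site, ran from 29.2 to 35.2 CPM in F1 and stood at 38.7, 42.7, 44.1, 44.2 and 48.2 CPM in F4 (adjusted p = 0.00248 by edgeR). In these 3 genes F1 and F4 did not overlap. The 3 were picked by their small p in this same test, and the share of all genes without overlap between cohorts is not given here.

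Mrps6, a small bacterial-type protein, ran from 7.12 to 10.0 CPM in F1, from 10.5 to 13.1 CPM in F2, from 6.69 to 13.4 CPM in F3 and stood between 9.35 and 14.2 CPM in F4 (adjusted p = 0.00262 by edgeR). Here F1 and F2 did not overlap and F1 and F4 did. Mrps6 too was picked by its small p in this same test, and the share of all genes without overlap is not given here. Exons of Mrps6 overlap those of Slc5a3 and Gm49711 on the same strand. Mrpl45, which tethers the mitochondrial ribosome to the inner membrane, Mrpl13, Mrps10 and Mrpl33 were the next by p. Mrpl45 ran from 27.7 to 32.4 CPM in F1 and from 31.8 to 38.7 CPM in F2, and its adjusted p was 0.00275 by edgeR.

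**Figure D3:**
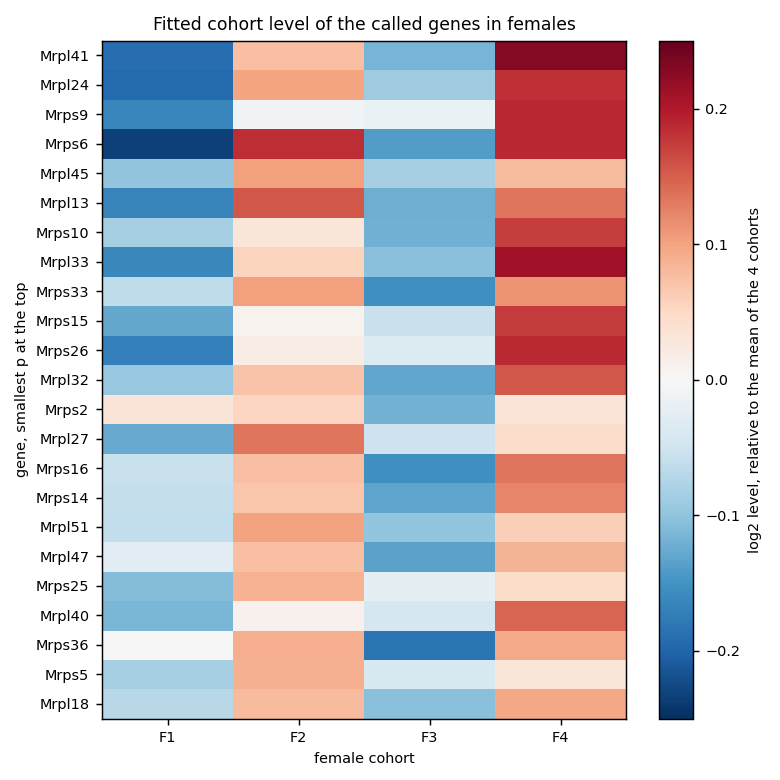
Colours give the fitted log2 level of the 23 genes called among females in each of 4 cohorts, relative to the mean of the cohorts, with the gene of smallest p at the top. F4 or F2 is highest and F1 or F3 lowest in every row, and Mrpl41 spans 0.42 between F1 and F4.

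Among males no member passed (0 of 73), against 369 genes (3.83% called by edgeR). At an unadjusted p under 0.05 stood 4 members (5.48%) and 1914 genes (19.9%), and DESeq2 called 0 and voom 9 members. Mrpl24 had the smallest p (adjusted p = 0.131 by edgeR) and was highest in M4 and lowest in M2, 0.32 apart on the log2 scale.

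Cohort pairs were compared within each sex. Between F1 and F3, 1 member passed, Mrps2, while 1148 genes did (11.9% called by edgeR, with 5.68% higher and 6.24% lower in F1). Mrps2, a bacterial-type protein of the small subunit, ran from 27.2 over 30.6 to 34.8 CPM in F1 and from 24.1 over 27.5 to 30.7 CPM in F3. It was higher in F1 by 0.15 ± 0.053 (log2, adjusted p = 0.048 by edgeR), and the cohorts overlapped. The call was close to the threshold and was lost when any of 37 single libraries was left out.

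Between M2 and M4, 2 members passed, Mrpl24 and Mrpl42, both lower in M2, while 1249 genes did (13% called by edgeR, with 6.68% higher and 6.28% lower in M2). Mrpl24 ran from 27.8 over 32.6 to 34.4 CPM in the 6 mice of M2, and the 5 mice of M4 stood at 37.6, 37.7, 38.1, 41.4 and 45.7 CPM, so the cohorts did not overlap. The fold change was -0.32 ± 0.094 (adjusted p = 0.0221 by edgeR). Mrpl42 ran from 25.1 over 29.8 to 31.0 CPM in M2, and in M4 stood at 31.2, 33.7, 35.9, 38.9 and 40.0 CPM, again without overlap, at -0.30 ± 0.097 (adjusted p = 0.0337 by edgeR). Mrpl24 and Mrpl42 were picked because they passed in this same comparison, and the share of all genes without overlap is not given here. Both calls were lost without injured SB male 1 or injured SB male 6, at adjusted p-values up to 0.111 for Mrpl24 and 0.123 for Mrpl42. Mrpl42 also lost its call without injured vehicle male 1, injured vehicle male 3 or sham vehicle male 3.

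The members moved together between animals. After group and cohort were removed, the correlation between 2 members across the 58 libraries had a median Pearson's r of 0.326 over 2628 pairs, and 87% of pairs were positive, against a median of -0.0036 over all gene pairs. It was 0.359 among large and 0.276 among small subunit genes. These libraries share their normalization and cohorts, and the values are given as a description. With group and cohort left in, Mrpl18 (r = 0.868), Mrpl20 (0.838) and Mrpl12 (0.837) followed the mean of the members most closely, whereas Mrpl37 (0.028), Mrpl35 (0.084) and Mrps17 (0.112) had the lowest values. With both removed, r was 0.852 for Mrpl18, 0.864 for Mrpl20 and 0.876 for Mrpl12, and Mrpl33 was at -0.103, below the 0.0040 of Mrpl37. This order changed in part after removal of each library's trend of level with transcript length. Mrps17 then stood at 0.668, above Mrpl18 (0.586), Mrpl12 (0.525) and Mrpl20 (0.419), and Mrpl35 lay between Mrpl20 and Mrpl12. Mrpl37 (-0.565) and Mrpl33 (-0.575) stayed low. The mean of the members ran from 4.42 log2 CPM in injured SB female 10 to 4.90 in sham vehicle female 1. By cohort it was highest in F4, at 4.72 ± 0.058 (SD, n = 5), and lowest in F3, at 4.57 ± 0.11 (SD, n = 14).

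The genes outside the family whose level was most like this mean were Sod1, a superoxide dismutase (r = 0.921 over 58 libraries), Slc25a4, the ADP/ATP carrier of the inner mitochondrial membrane (0.920), Fis1, a factor of mitochondrial fission (0.918), Myl6, a myosin light chain (0.917), and Psmb6, a subunit of the proteasome (0.917). Most opposite were Dgki, a diacylglycerol kinase (-0.926), and Kidins220, a scaffold of neuronal receptors (-0.910). Without the 8 libraries that stood apart, the first 5 lay between 0.819 and 0.897. When each library's trend of level with transcript length was removed, Slc25a4 kept an r of 0.706 while Myl6 fell to 0.066, Sod1 to 0.280 and Fis1 to 0.311.

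Much of this joint movement ran along with transcript length. For each library, the deviation of all other genes from their own mean was correlated with transcript length, and this trend ran from a Spearman's rho of -0.66 to 0.50 over the 58 libraries. Where short transcripts were high, the members were high: the mean of the members followed the trend with a Pearson's r of -0.885 (Spearman's rho = -0.865), of -0.863 without the 2 libraries farthest from the median trend and of -0.875 after group and cohort were removed. The 5 libraries with the highest mean of the members had trends between -0.66 and -0.46. With the trend removed, the median correlation between 2 members was 0.040.

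**Figure D4:**
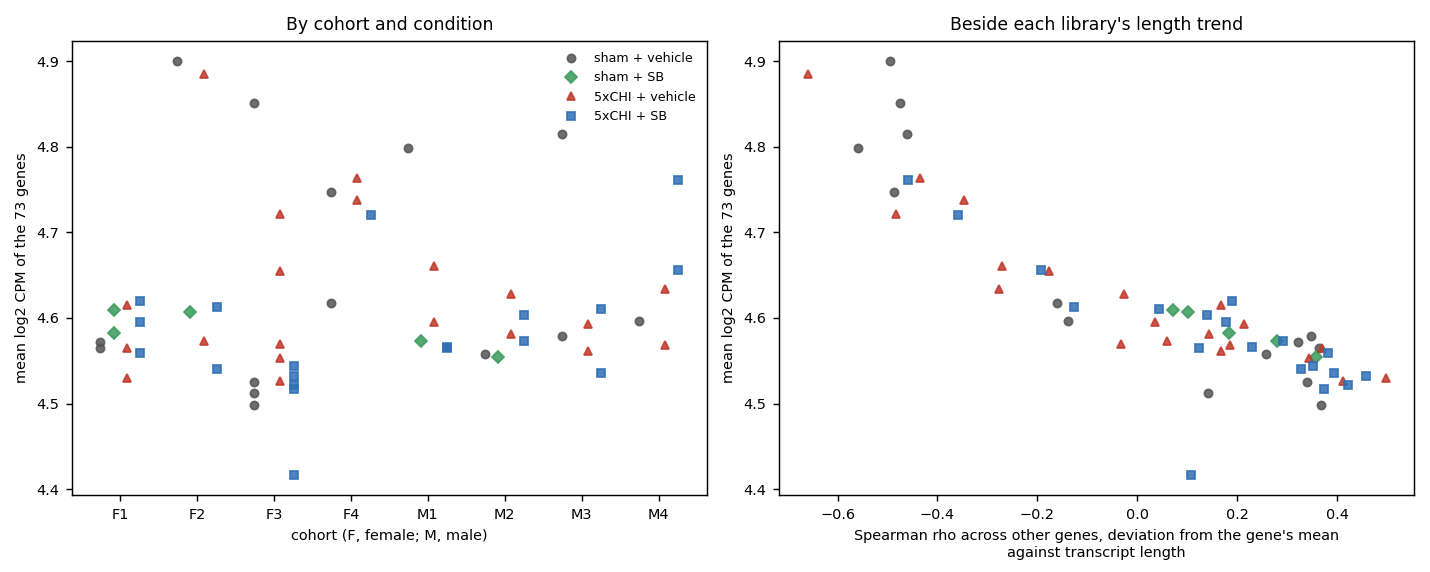
Each point is 1 of 58 libraries, with the mean log2 CPM of the 73 genes on the vertical axis, by cohort (left) and against the library's trend with transcript length (right), with symbols for the 4 conditions. On the right the mean falls from 4.88 at the most negative trend, -0.66, to 4.53 at the most positive, 0.50, and injured SB female 10 lies apart at 4.42.

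Fold changes followed transcript length as well. Across 9631 genes with a length, which are not independent replicates, the Spearman correlation of fold change and length was 0.492 for injury and 0.368 for SB, and across the 73 members it was 0.414 and -0.085. Over the 9631 genes it differed by sex: 0.036 in females and 0.474 in males for injury, and 0.496 and 0.073 for SB in injured mice. For the male minus female difference it was 0.340 for injury and -0.425 for SB. The counts of members by sex above are without correction for length, and the part of the trend in them was not tested. With the length trend of each library removed, 39 members were lower and 34 higher after injury (median -0.0045, all genes -0.0041). For SB, 41 were lower and 32 higher (median -0.0078, all genes 0.00079). The trend moves with the members' values, and what sets it (RNA integrity, library preparation or tissue) was not tested.

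**Figure D5:**
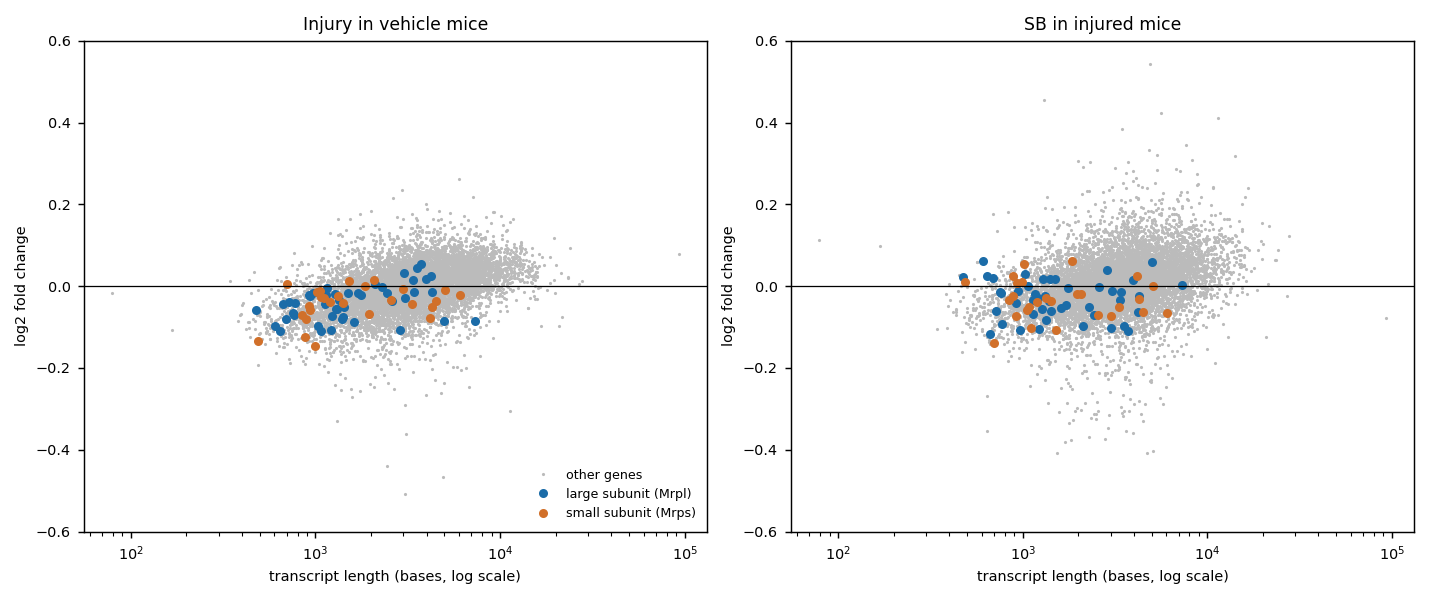
Each point is a gene, with transcript length in bases on a log axis and the log2 fold change for injury (left) or SB (right) on the vertical axis, grey for other genes, blue for large and orange for small subunit symbols. Short transcripts lie lower in both panels (Spearman correlation 0.492 and 0.368), and the 73 members lie within the grey cloud.

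Other genes of mitochondrial translation and respiration were looked up by list, and no gene of any list passed for injury or SB (0% called by edgeR). The 5 mitochondrial ribosomal proteins with other symbols, among them Dap3, had 3 members lower after injury (median -0.028) and 5 lower with SB (median -0.032). Of 13 measured factors of mitochondrial translation 11 were lower after injury (median -0.019), led by the elongation factor gene Tsfm at -0.14 ± 0.067, and 10 with SB (median -0.018). Of 21 factors that assemble the mitochondrial ribosome 13 were lower after injury (median -0.014), with Eral1, a chaperone of the small subunit RNA, at -0.12 ± 0.058, and 14 with SB (median -0.024). Of 17 mitochondrial aminoacyl tRNA synthetases and related genes 9 were lower after injury (median -0.00024) and 11 with SB (median -0.0071). Of 17 genes of mitochondrial transcription and RNA processing 10 were lower after injury (median -0.0029), while Fastkd1 stood at 0.14 ± 0.050, and 11 were lower with SB (median -0.026).

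Genes of the respiratory chain and of cytosolic ribosomes were mostly lower by sign, as the members were, and differences between lists were not tested. Of all 9636 genes, 4872 were lower after injury and 4604 with SB. These list counts are without correction for transcript length and with all libraries kept. Transcripts of the cytosolic ribosomal proteins are short as well, with a median of 886 bases against 3321 for all genes. The part of the length trend in these lists was not tested. All 35 listed complex I subunits were measured, and 34 were lower after injury (median -0.092) and 34 with SB (median -0.044). All 20 measured subunits of complexes III to V were lower in both comparisons (median -0.092 and -0.063). Of 24 measured genes of mitochondrial protein import 22 were lower after injury (median -0.050) and 20 with SB (median -0.020). Of the 77 cytosolic ribosomal proteins 74 were lower after injury (median -0.059) and 77 with SB (median -0.067). Of 11 measured regulators of mitochondrial genes 7 were higher in each comparison (median 0.015 and 0.012). Ppargc1b, a coactivator of genes for mitochondrial proteins, stood at -0.18 ± 0.087 after injury and at 0.16 ± 0.079 with SB, and both values rest on the same injured vehicle mice. Among female cohorts, 16 of 35 complex I, 8 of 13 translation factor, 4 of 21 assembly factor and 56 of 77 cytosolic ribosomal protein genes passed, against 50% of all genes.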

How the data were processed

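The values are raw read counts per gene, deposited by the authors as 1 table that covers 9636 genes and 58 libraries. Per the labels' protocols, polyadenylated RNA was selected and directional libraries were prepared. Per the submitters' processing notes, the tools were STAR, featureCounts and DESeq2 and the build was GRCm39/mm39. No source used here gives their versions, settings or annotation. Totals were 28316280 to 49158277 counts per library over the listed genes, so the spread between animals (biological coefficient of variation 0.123) outweighs counting error.

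The test was that of edgeR 4.0.16 in R 4.3.3 (TMM, robust quasi-likelihood test, two-sided, Benjamini-Hochberg at 0.05 over 9636 genes). The model held 8 groups of sex, injury and treatment and the cohort within sex (14 coefficients, 44 residual degrees of freedom), and a comparison over both sexes averages the female and the male difference. The code was tested on simulated data. Levels are TMM-scaled CPM, and log2 CPM uses a prior count of 2. DESeq2 1.42.0 and limma 3.58.1 (voom with quality weights) were alternatives, along with other normalizations and filters, no cohort term, a replicate block, a correction for transcript length, and leaving out each library. Lengths are those of GENCODE vM21 principal transcripts (9631 genes, 73 of 73 members). Library pairs of a group differed by more than sampling noise (chi-square of at least 9.83 per degree of freedom), and each library counted as a sample.

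Members and lists were chosen with earlier results of these data known. Named members are those that passed or, with none, the 4 of smallest p per direction for injury and SB (in other comparisons the member of smallest p), the 4 highest and 4 lowest per kilobase, and members with a further known role. Outside the family, the 5 genes most like the mean of the members were named, and at most 2 genes per list. Dgki, Kidins220, the members most and least like the mean, the widest intervals and the most and least variable members were picked after their values were seen, as was the sorting of members by bacterial counterpart.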

Additional observations from a re-analysis of the deposited data

Results flagged for a closer look

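In 156 sets of values, each a named member in a group of 4 to 10 mice, the highest or lowest mouse was compared with the rest, and 5 single values lay apart by Dixon's criterion at 95%. Chance flags about 1 in 20 such sets. Mrpl41 stood at 5.358 log2 CPM in sham vehicle male 4, of cohort M1, against 4.858 to 5.002 in the other sham vehicle males. Mrps6 stood at 3.939 in injured SB male 6, of M4, against 2.946 to 3.346 in the other injured SB males. Mrpl17 and Mrpl44 both lay low in injured SB male 3, of M1: Mrpl17 at 4.329 against 4.558 to 4.759, and Mrpl44 at 3.999 against 4.2 to 4.381. Mrps36 stood at 3.513 in injured vehicle male 2, of M4, against 3.781 to 3.976 in the other injured vehicle males.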

How the results depend on the processing

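For injury, SB and their combinations no alternative called a member. Voom called 1 gene for SB in injured mice and 8 for the sex difference of the injury effect. Without the 8 libraries over 3 median absolute deviations, the median of the members turned to 0.024 for injured SB against sham vehicle, to 0.031 for SB in sham mice and to 0.032 for injury in males, and Mrpl18 after injury turned to 0.025. For F1 minus F3 the main setting called 1.37% of members against 11.9% of genes. Members called were 0 with library totals, 0 with a mean of at least 20 CPM and 3 of 73 with the length correction. For these settings no count of all genes is given here, so they cannot be set against all genes. With voom 2 of 73 members and 2104 of 9636 genes passed. Without single libraries 0 to 2 of 73 members and 771 to 1336 of 9636 genes passed. Mrps2 then ran from 0.13 to 0.18. For M2 minus M4 the main setting called 2.74% of members against 13% of genes. Members called were 6 of 73 with voom (3129 of 9636 genes) and 9 of 73 without the 8 libraries (2883 of 9636 genes). With the length correction they were 4 of 73, and no count of all genes is given here. Leaving out single libraries gave 0 to 4 members and 469 genes (without injured SB male 6) to 1684 genes, with Mrpl24 between -0.36 and -0.26 and Mrpl42 between -0.35 and -0.26. Among female cohorts they were 35 with library totals and 45 with voom. Among male cohorts DESeq2 called 613 genes and voom 3000 (9 members). Without sham vehicle female 7, the 1 library over 4 deviations, 769 genes and 1 member passed, and without the 8 libraries 2178 genes and 4 members. Leaving out single libraries gave 28 (without sham vehicle male 1) to 769 genes and 0 to 1 member.

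Replicate numbers gave no pairing. Same-numbered mice shared a cohort in 16 of 62 pairs, their deviations correlated over 0.1 in 21 of 62, and 3 of 58 libraries correlated best with their own number. With the replicate number as a block, 301 genes and 0 members passed for F1 minus F3, 13 members among female cohorts and 225 genes among male cohorts. For injury and SB the block called 0 members.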
